A study of Mus musculus with 132 samples.

Results

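Transcripts that the mouse oocyte makes for its own growth and maturation were followed in single cells of the preimplantation embryo. They were chosen by gene symbol, as 9 of the 32245 genes counted: Zp1, Zp2, Zp3, Gdf9, Bmp15, Zar1, Npm2, Btg4 and Mos. All 9 were in the table, and 1 of them, Zar1, had no count in any cell. Embryos of C57BL/6 x DBA F1 parents were taken from superovulated females at the 2-cell stage and cultured in medium that held either a mimic of the microRNA miR-381-3p (mimic) or a scrambled mimic as negative control (control). Cells were sequenced with Smart-seq2, which reads polyadenylated RNA and counts reads without molecular identifiers, after the zona pellucida had been dissolved.

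There were 4 groups of cells. At the 8-cell stage (embryonic day 2.5) control embryos gave 30 cells and mimic embryos 24, and at the 32-cell stage (embryonic day 3.5) each treatment gave 39. Doses of 5 and 10 µM were used, and no label ties a dose to a cell. By the study's account the higher dose went with the 8-cell stage and the lower with the 32-cell stage. Between the 2 mimic groups, stage and dose therefore cannot be told apart. The labels tie no cell to its embryo, so each group counts as 1 sample and no test between groups was possible. Intervals of levels and folds cover counting error only, and those of shares of cells treat the cells as independent. Neither kind covers the spread between embryos. Total counts per cell ranged from 544866 to 3461022. Levels are counts per 1000000 counts (CPM) without mitochondrial genes, pooled over the cells of a group, so they are shares of the RNA read and not molecules per cell.

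Some features of the groups touch every comparison here. Cell titles carry numbers, which form 1 to 3 runs within a group. Runs of the 2 treatments adjoin at both stages, and no label says whether a run marks an embryo, a plate or a day. At the 32-cell stage all 39 control cells had more Y-linked than Xist counts (the Y-linked type), and all 39 mimic cells had Xist at 20 CPM or more with Y-linked genes below that (the Xist only type). The 8-cell cells were mixed, with 23 of the Xist only type and 7 of the Y-linked type in control and 11 and 8 in mimic, where 3 further cells reached 20 CPM for both and 2 were of neither kind. Xist is the RNA that coats the inactive X chromosome of female cells. In the 8-cell mimic group 3 cells had few genes detected, at most 4881 against at least 5963 in the other cells of the group.

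The growing oocyte builds a coat, the zona pellucida, from secreted glycoproteins, and it speaks to the surrounding follicle cells through secreted growth factors of the TGF-beta superfamily. It also stores proteins and mRNAs that carry the embryo through its first division, and these maternal mRNAs are removed as the egg matures and as the embryo switches on its own genome. In the mouse this switch takes place mainly at the 2-cell stage. Removal runs largely through shortening of the poly(A) tail by the CCR4-NOT deadenylase, which BTG4 recruits.

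The mimic copies a mature microRNA encoded on chr12:109726870-109726891, plus strand (GRCm38.p6, from RefSeq). Its sequence is shown because the seed, bases 2 to 8 from the 5′ end, sets which 3′ UTR letters can pair with it. The capitals mark the seed.
miR-381-3p: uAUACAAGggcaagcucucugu

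The complement of that seed followed by the base opposite the first position gives an 8-base site, CTTGTATA, and the 7-base sites TTGTATA and CTTGTAT. None of the 9 genes had any of these sites in its longest annotated 3′ UTR (GENCODE M21, GRCm38). Across the 20741 genes of the table with an annotated 3′ UTR, 3.12% held the 8-base site, and 15.5% held TTGTATA and 11.3% CTTGTAT, both counts including genes with the longer match. The oocyte genes mostly have short 3′ UTRs. Apart from Zar1, also below 173 bases, the lengths were 13 bases for Zp3, 126 for Mos, 173 for Zp2, 193 for Zp1, 203 for Npm2, 360 for Gdf9, 521 for Btg4 and 1523 for Bmp15, against a median of 967 over all genes. That of Zp3 is among the shortest annotated, with 39 genes (0.188%) at 13 bases or fewer.

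Letters linked to control of the poly(A) tail were also counted, in the last 100 bases of each 3′ UTR. The polyadenylation signal AATAAA was present in 7 of the 9 genes, all but Zp3, whose whole 3′ UTR is shorter than the window, and Btg4; 64.4% of all genes with at least 100 bases held it. TTTTAT, a form of the cytoplasmic polyadenylation element by which the oocyte wakes dormant mRNAs, was in Gdf9 and Btg4, and in 13.7% of all genes.

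RefSeq promoter sequences were at hand for 4 of the 9 genes, Zp3, Bmp15, Zar1 and Btg4. Those of Zp3 and Btg4 are shown because these were the clearest zona and clearance transcripts of the 8-cell cells. E-boxes, the CANNTG motif bound by basic helix-loop-helix factors such as the oocyte regulator Figla, are in capitals. Both lie on the plus strand of GRCm38.p6, at chr5:135979855-135980098 for Zp3 and at chr9:51115751-51116000 for Btg4. The RefSeq start of Btg4 lies inside the longer GENCODE gene model given below, so this window is not upstream of that model.
Zp3: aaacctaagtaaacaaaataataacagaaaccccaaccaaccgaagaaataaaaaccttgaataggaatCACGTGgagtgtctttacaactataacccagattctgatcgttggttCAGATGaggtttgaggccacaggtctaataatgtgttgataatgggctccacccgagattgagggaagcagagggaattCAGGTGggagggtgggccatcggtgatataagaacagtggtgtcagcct
Btg4: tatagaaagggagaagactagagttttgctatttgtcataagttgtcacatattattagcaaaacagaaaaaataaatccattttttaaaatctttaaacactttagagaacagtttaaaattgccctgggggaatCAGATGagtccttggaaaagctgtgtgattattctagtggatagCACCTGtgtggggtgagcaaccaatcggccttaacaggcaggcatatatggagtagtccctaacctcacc

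The motif CANNTG, which reads alike on both strands in its fixed letters, occurred 3 times before Zp3 (181, 134 and 55 bases before the RefSeq start) and 2 times before Btg4. The window of 250 bases before the start held it in 66.2% of 32851 RefSeq promoters. The first E-box of Zp3, CACGTG, was in 6.02% of promoters. TAATTG, searched on both strands as a form bound by the oocyte homeobox factor Nobox, was in none of the 4 windows and in 7.17% of all. Figla itself had no count in the 8-cell cells, and Nobox had none in any group.

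Zona pellucida genes came first. Zp3 (chr5:135980099-135988624, plus strand, GRCm38 as for all positions that follow) encodes the glycoprotein that, with ZP1 and ZP2, forms the coat. It was the highest of the 9 genes at the 8-cell stage in control embryos, both in CPM and per kilobase of transcript (50.4 CPM per kb, with Npm2 next at 15.5). In 8-cell control cells Zp3 ranged from 0 to 191.7 CPM with a median of 50.3, and 25 of 30 cells had a count (83.3%, exact binomial interval 65.3 to 94.4%). In 8-cell mimic cells it ranged from 0 to 94.9 CPM with a median of 8.61, and 15 of 24 had a count (62.5%, 40.6 to 81.2%). Thinning every cell to 500000 counts left both shares as they were.

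By the 32-cell stage Zp3 was nearly gone. One 32-cell control cell held 23 counts and the other 38 had none, whereas 3 of 39 mimic cells held 51, 28 and 5 counts. The pooled levels were 66.7 CPM (exact Poisson interval 64.1 to 69.4) at the 8-cell stage and 0.404 CPM (0.256 to 0.607) at the 32-cell stage in control, a 165.04-fold difference (counting interval 109.7 to 261). In mimic-treated embryos they were 17.2 CPM (15.8 to 18.8) and 1.58 CPM (1.26 to 1.95), a 10.9-fold difference (8.67 to 13.9). These folds move with the few cells behind them: leaving out 1 run of 32-cell cells at a time gave 0 or 1.01 CPM in control and 0.915 to 2.11 CPM in mimic, and the 2 8-cell control cells of the smaller run had 18.7 CPM. Ranges of cells overlapped only at 0 and among the 4 positive 32-cell cells.

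Zp1 and Zp2 were rare even in 8-cell cells. Zp2 (chr7:120126772-120145291, minus strand), the main sperm-binding protein of the coat, was at 3.95 CPM in 8-cell control, from 4 of 30 cells, and 129 counts (89.0%) lay in 1 cell. The 8-cell mimic cells held 8 Zp2 counts, 32-cell control cells none and 32-cell mimic cells 2. Zp1 (chr19:10914287-10920632, minus strand), which cross-links the filaments of the coat, had 2 counts in 8-cell control and 66 in 8-cell mimic cells, 62 of them in 1 cell. Among 32-cell cells Zp1 had no count in control and 42 in mimic, 38 of them in 1 cell. A pooled level set by 1 cell in this way says little of its group, and no direction is read from it.

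**Figure D1:**
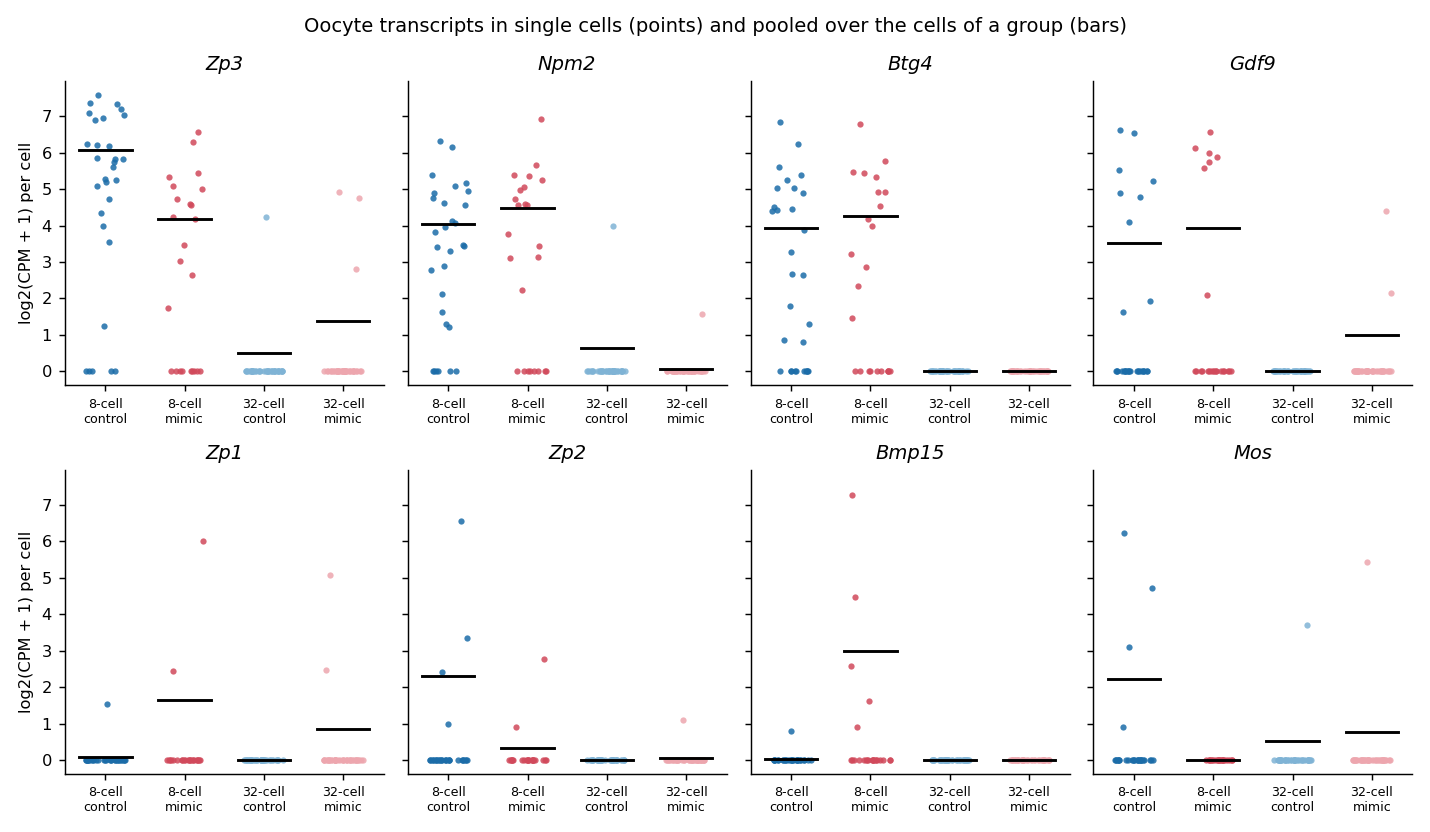
Level of each oocyte transcript, as log2(CPM + 1), in single cells (points) of the 4 groups, with the level pooled over the cells of a group as a black bar; Zar1, at 0 in every cell, is left out. Zp3, Npm2, Btg4 and Gdf9 are spread over many 8-cell cells and nearly empty at the 32-cell stage, whereas the bars of Zp1, Zp2, Bmp15 and Mos rest on 1 to a few cells.

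The oocyte growth factors differed from each other. Gdf9 (chr11:53431023-53437904, plus strand), which drives cumulus and granulosa cells, was found in a minority of 8-cell cells but at high levels there. In 8-cell control 9 of 30 cells (30%, 14.7 to 49.4%) had a count, at 2.11 to 98.3 CPM. In 8-cell mimic 7 of 24 (29.2%, 12.6 to 51.1%) had one, at 3.27 to 93.6 CPM, and 6 of these 7 were above 46 CPM. Pooled Gdf9 was 10.5 CPM (9.51 to 11.6) in 8-cell control and 0 in 32-cell control, at least 199.8-fold lower when set against 3 counts over the 32-cell group. In mimic it went from 14.4 CPM (13.1 to 15.8) to 0.977 CPM (0.729 to 1.28), with 47 and 5 counts in 2 of 39 32-cell cells, a 14.7-fold difference (11.0 to 20.0). Since 90.4% of those counts lay in 1 cell, the 32-cell level was 0.134 CPM without the run of 9 cells that holds it and 1.58 CPM without the run of 18 cells that had no Gdf9.

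Bmp15 (chrX:6314107-6320721, minus strand), the X-linked partner of Gdf9, had 1 count in all 8-cell control cells and none at the 32-cell stage in either treatment. The 8-cell mimic cells held 217 Bmp15 counts in 5 of 24 cells, and 196 of these lay in 1 cell, one of the 3 with few genes detected. Pooled Bmp15 was 7.02 CPM in 8-cell mimic with that cell and 0.709 CPM without it. Of the receptors and SMADs through which GDF9 and BMP15 signal, 8 of 10 reached 5 CPM in either stage in control, 3 of them past a log2 difference of 1 upward and 0 downward at the 32-cell stage, where 31.1% of all genes at that level were higher and 22.5% lower by the same limit. The receptors Bmpr1a (128 and 95.9 CPM in 8-cell and 32-cell control) and Bmpr2 (57.0 and 55.3 CPM) had similar levels at both stages, and the signal transducer Smad5 went from 0.272 to 16.03 CPM.

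Maternal effect genes were represented by Npm2 and Zar1. Npm2 (chr14:70647302-70659244, minus strand), the nucleoplasmin of the egg that organises chromatin and nucleoli after fertilization, was counted in about as many 8-cell cells as Zp3, at a lower pooled level in control and a higher one in mimic. In 8-cell control it ranged from 0 to 79.6 CPM with a median of 9.95 and had a count in 24 of 30 cells (80%, 61.4 to 92.3%; 76.7% after thinning). In 8-cell mimic it ranged from 0 to 120 CPM with a median of 11.2 and had a count in 16 of 24 (66.7%, 44.7 to 84.4%). One 32-cell control cell held 31 counts and 1 mimic cell held 2. Pooled Npm2 was 15.4 CPM (14.2 to 16.8) and 0.545 CPM (0.370 to 0.773) in control, a 28.3-fold difference (19.7 to 42.1) that rests on the 1 cell: without either run of 32-cell control cells the level was 0 or 1.36 CPM, and the smaller run of 8-cell control cells had 4.95 CPM. In mimic it was 21.5 CPM (19.9 to 23.2) and 0.0376 CPM (0.00455 to 0.136), for which the 2 counts give a ratio of 0.00175 with a wide interval (0.000211 to 0.00634). Npm2 shares exon sequence with Xpo7 on the same strand, and how the counting divided reads between them is uncertain. Xpo7, a nuclear export receptor, stayed between 44.6 and 77.7 CPM in all 4 groups.

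The relatives of Npm2 were counted at both stages. Npm1, the nucleophosmin of every nucleolus, was at 3539 CPM in 8-cell control and 1971 CPM in 32-cell control, a log2 difference of -0.84, and at 3831 and 1629 CPM in mimic, a difference of -1.23 and so past the limit of 1. Npm3 was at 9.06 and 9.93 CPM in control and at 2.88 and 10.1 CPM in mimic, where it was past the limit upward (1.51). Zar1 (chr5:72576806-72581254, minus strand), an RNA-binding protein required at the oocyte-to-embryo transition, had 0 counts in the cells of every group. That allows a level of up to 0.0817 CPM in 8-cell control by the 3 counts that a count of 0 allows; a cell may hold the transcript and give no count. Its relative Zar1l was at 3.81 CPM in 8-cell control and 1.49 CPM in 8-cell mimic.

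Btg4 (chr9:51060901-51119875, plus strand), the adaptor that brings the deadenylase to maternal mRNA, was counted at the 8-cell stage only. In 8-cell control it ranged from 0 to 113.2 CPM with a median of 5.30, with a count in 20 of 30 cells (66.7%, 47.2 to 82.7%; 60.0% after thinning). In 8-cell mimic it ranged from 0 to 108.6 CPM with a median of 5.16, with a count in 14 of 24 (58.3%, 36.6 to 77.9%). None of the 78 32-cell cells had a count of Btg4. Layn, whose gene model overlaps that of Btg4 without a shared exon, had no count in any group. Pooled Btg4 was 14.3 CPM (13.1 to 15.6) and 18.2 CPM (16.7 to 19.8) at the 8-cell stage, so it was at least 272-fold lower in 32-cell control and at least 323-fold lower in 32-cell mimic cells.

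Mos (chr4:3870657-3872105, minus strand), the kinase that holds the egg at metaphase of meiosis II, was rare. It had 134 counts in 4 of 30 8-cell control cells, 76.1% of them in 1 cell, and none in the 8-cell mimic group. By the 32-cell stage it had 25 counts in 1 control cell and 38 in 1 mimic cell.

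**Figure D2:**
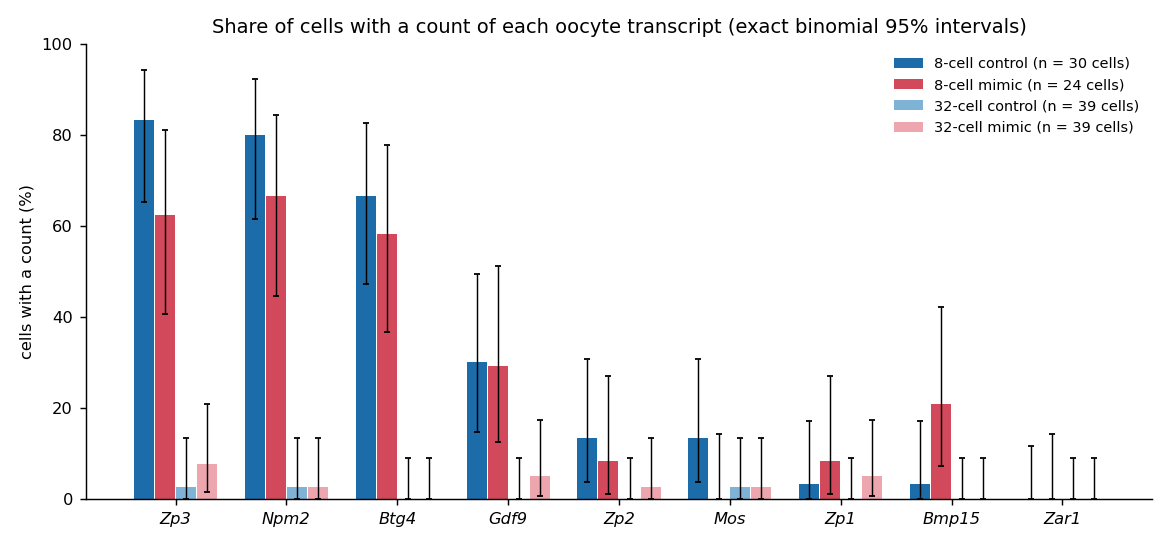
Share of the cells of each group with a count of each of the 9 genes, in percent, with exact binomial 95% intervals. Zp3, Npm2 and Btg4 were counted in 58.3 to 83.3% of 8-cell cells and in at most 7.69% of 32-cell cells.

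The stage comparison asks how far the levels of these transcripts differed between the 8-cell and the 32-cell stage. Removal itself was not measured, since levels are shares of the RNA read, and no value here shows that the 8-cell counts are maternal. The summed level of the 9 genes was 114.7 CPM (111.2 to 118.2) in 8-cell control and 1.39 CPM (1.10 to 1.73) in 32-cell control. It was 80.7 CPM (77.6 to 83.9) in 8-cell mimic and 4.13 CPM (3.60 to 4.72) in 32-cell mimic. Every 8-cell control cell held at least 1 of the 9 transcripts, at a summed level of 6.59 CPM or more, and 23 of 24 8-cell mimic cells did. The median cell held 3 of them in 8-cell control and 2 in 8-cell mimic, and 37 of 39 control and 30 of 39 mimic cells held none at the 32-cell stage.

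A log2 difference of 1 or more between pooled log2(CPM + 1) values, among genes that reached 5 CPM in at least 1 of the groups compared, was taken as the limit for a call. In control, 4 of the 9 genes reached 5 CPM, Zp3, Gdf9, Npm2 and Btg4, all through the 8-cell group alone, and all 4 were lower at the 32-cell stage, with log2 differences of -5.59, -3.53, -3.41 and -3.94. Over all 10348 genes at that level 22.5% were lower and 31.1% higher by this limit. In mimic, 5 reached it, again only through the 8-cell group, with log2 differences of -2.82 for Zp3, -2.96 for Gdf9, -3.004 for Bmp15, -4.44 for Npm2 and -4.26 for Btg4. Without the 3 mimic cells with few genes Bmp15 was at -0.83, and 4 genes were past the limit. There the background was 20.2% lower and 31.8% higher of 10518 genes. Because genes that enter through the 8-cell group could scarcely differ the other way, these counts are a description and not support.

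Genes of like level give a scale for these differences. Of 2982 genes within 2-fold of the level of Zp3 in 8-cell control, 10 (0.335%) had a lower log2 difference between the stages. Of genes of like level, 2.17% were lower than Btg4, 3.70% than Gdf9 and 5.45% than Npm2. In mimic 1.13% were lower than Npm2, 1.43% than Btg4 and 7.10% than Zp3, which started from a lower level there. Btg4 in both treatments and Gdf9 in control had no count at the 32-cell stage, so only genes that started higher could be lower. These shares are a description and not support, as for the calls above. The order of the genes is not firm, since it turns on single 32-cell cells and on the run: without the 28 8-cell control cells numbered 1 to 30, Btg4 (-4.80) was below Zp3 (-3.81), and without the 15 32-cell control cells with the higher numbers Npm2 (-4.04) was below Btg4 and Gdf9.

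**Figure D3:**
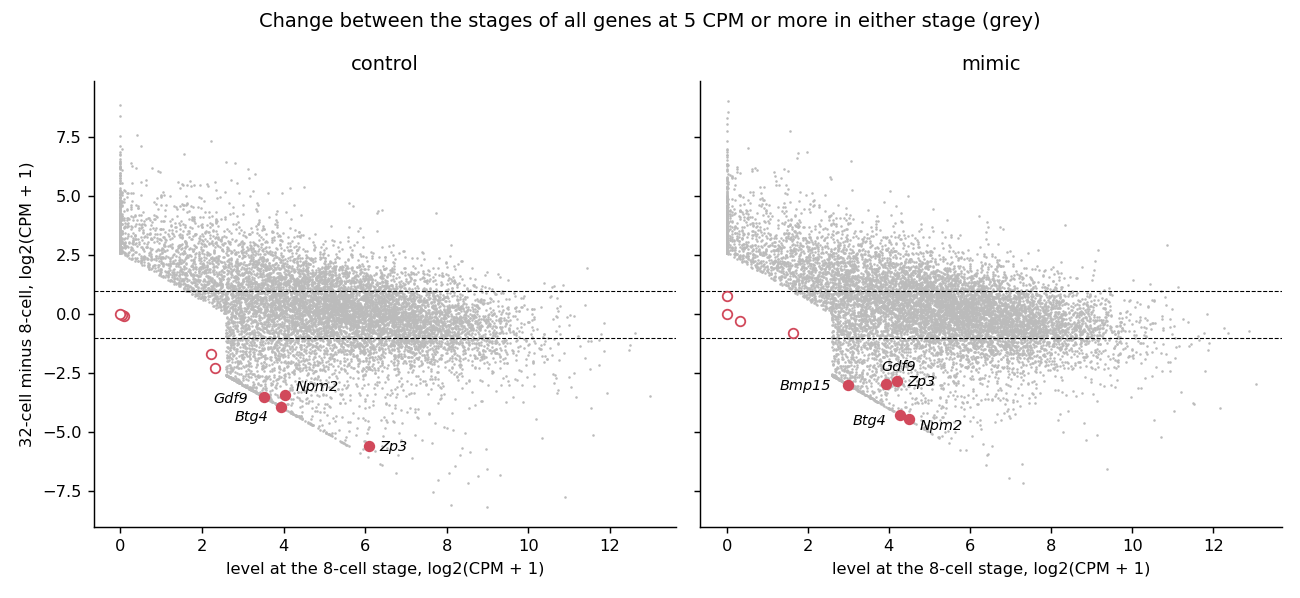
Difference between the stages, as 32-cell minus 8-cell on the log2(CPM + 1) scale, against the pooled level at the 8-cell stage, for control (left) and mimic (right). Grey points are all genes at 5 CPM or more in either stage, filled red points the oocyte genes among them and open red points the oocyte genes below that level; dashed lines mark a difference of 1, and the lower diagonal edge holds genes with no count at the 32-cell stage. In control Zp3 sits at -5.59, near that edge, whereas in mimic Npm2 (-4.44) and Btg4 (-4.26) are lowest of the 9.

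Other transcripts of the oocyte were set beside these. Of 26 further oocyte genes, 6 reached 5 CPM in either stage in control, of which 5 were lower and 0 higher at the 32-cell stage, where 22.5% of all genes were lower and 31.1% higher. In mimic 6 reached it, 5 lower and 1 higher, beside 20.2% and 31.8% of all genes. In control the median log2 difference of the 6 was -3.31, against 0.198 over all genes. The 5 lower genes reached 5 CPM through the 8-cell group alone, so, as for the 9 genes above, count and median are a description and not support. Gpr3, the receptor that keeps the oocyte in meiotic arrest, went from 14.97 CPM to 0 in control and from 13.9 to 0.939 CPM in mimic. Omt2b went from 15.2 to 0.0176 CPM in control and from 20.4 CPM to 0 in mimic. Cpeb1, which binds the cytoplasmic polyadenylation element, was the exception, with 12.4 and 18.8 CPM in control and 1.26 and 20.3 CPM in mimic, the last a log2 difference of 3.24.

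Genes of the machinery that removes maternal mRNA were still counted at the 32-cell stage, unlike Btg4. Of 22 genes of deadenylation, decapping and decay, Btg4 itself not among them, 21 reached 5 CPM in control, 5 lower and 4 higher at the 32-cell stage, with a median log2 difference of 0.02, where 22.5% of all genes were lower and 31.1% higher. In mimic 6 were lower and 3 higher, beside 20.2% and 31.8% of all genes, with a median of -0.55 against 0.261 over all genes. Cnot1, the scaffold of CCR4-NOT, had 345 and 350 CPM in 8-cell and 32-cell control. Ythdf2, a reader of methylated mRNA that promotes decay, was the highest of the list at the 8-cell stage, with 652 and 293 CPM in control and 821 and 251 CPM in mimic.

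Relatives of BTG4 in the BTG family moved in either direction. Btg1 had 220 CPM in 8-cell control and 47.1 CPM in 32-cell control. Btg2 had 18.1 and 45.1 CPM in control and 25.8 and 310 CPM in mimic.

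The treatment comparison at the 8-cell stage asks whether the mimic went with a different level of these transcripts at the same stage. Zp3 was the transcript that stood out, with 66.7 CPM in control against 17.2 CPM in mimic, 3.87-fold lower (counting interval 3.52 to 4.26), a log2 difference of -1.89. The ranges of cells overlapped widely, but 8 of 30 control cells were above the highest mimic cell (94.9 CPM). Of the 2982 genes within 2-fold of the level of Zp3 in 8-cell control, 25 (0.838%) had a lower log2 difference. Amhr2, the receptor of anti-Müllerian hormone, was also lower in mimic (105.6 and 46.5 CPM), and its part in the Zp3 difference was not tested.

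The other 3 transcripts above 5 CPM in both groups had slightly higher pooled levels in mimic, none past the limit. Npm2 was 1.39-fold higher (1.24 to 1.56), Gdf9 1.36-fold (1.19 to 1.57) and Btg4 1.27-fold (1.13 to 1.44). Against the 2 control cells numbered 87 and 88 alone, which had 0 CPM of Gdf9, 4.95 of Npm2 and 26.9 of Btg4, the log2 differences were 3.94, 1.92 and -0.54, so these small differences depend on the run. As the mean of single cells, each cell weighted alike, Btg4 was 17.6 CPM in both treatments. Of the 9 genes, 5 reached 5 CPM in either group, with 1 lower (Zp3) and 1 higher (Bmp15, through the 1 cell described above). The background over 9693 genes was 10.8% lower and 11% higher. Zp3 made up 58.2% of the summed counts of the 9 genes in 8-cell control and 21.4% in 8-cell mimic. Summed over the other 8, the level was 48.0 CPM (45.8 to 50.3) in control and 63.5 CPM (60.7 to 66.3) in mimic, so the lower sum of the mimic group lay in Zp3.

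Other features of the cells bear on the Zp3 difference. Of the 30 control cells, 28 carry the title numbers 1 to 30 and 2 carry 87 and 88, next to the mimic cells, which carry 63 to 86. Zp3 was 70.7 CPM (67.9 to 73.6) in the 28 cells and 18.7 CPM (14.03 to 24.5) in the 2 cells, at 1.38 and 36.9 CPM each, against 17.2 CPM in mimic. The part of the run in the difference was not tested. Among cells of the Xist only type, Zp3 was 51.9 CPM in 23 control cells against 18.7 CPM in 11 mimic cells, and where Y-linked counts exceeded Xist it was 102.04 CPM in 7 control cells against 17.6 CPM in 8 mimic cells, so it was lower in mimic within both types. The 5 mimic cells of neither type are left out of this split. The cells of the Y-linked type carry title numbers 9 to 16 in control and 79 to 86 in mimic. No label says whether either block of numbers comes from 1 embryo, so type and block cannot be told apart. Without the 3 mimic cells with few genes Zp3 was 16.2 CPM in mimic.

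The same split turned the small differences of other transcripts. Npm2 was 13.1 CPM in control against 24.1 CPM in mimic among cells with Xist only, but 20.9 and 18.01 CPM where Y-linked counts exceeded Xist. Btg4 was 15.7 and 28.1 CPM in the former and 10.9 and 7.84 CPM in the latter. Gdf9 was 12.3 and 12.1 CPM in the former and 6.43 and 11.9 CPM in the latter.

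**Figure D4:**
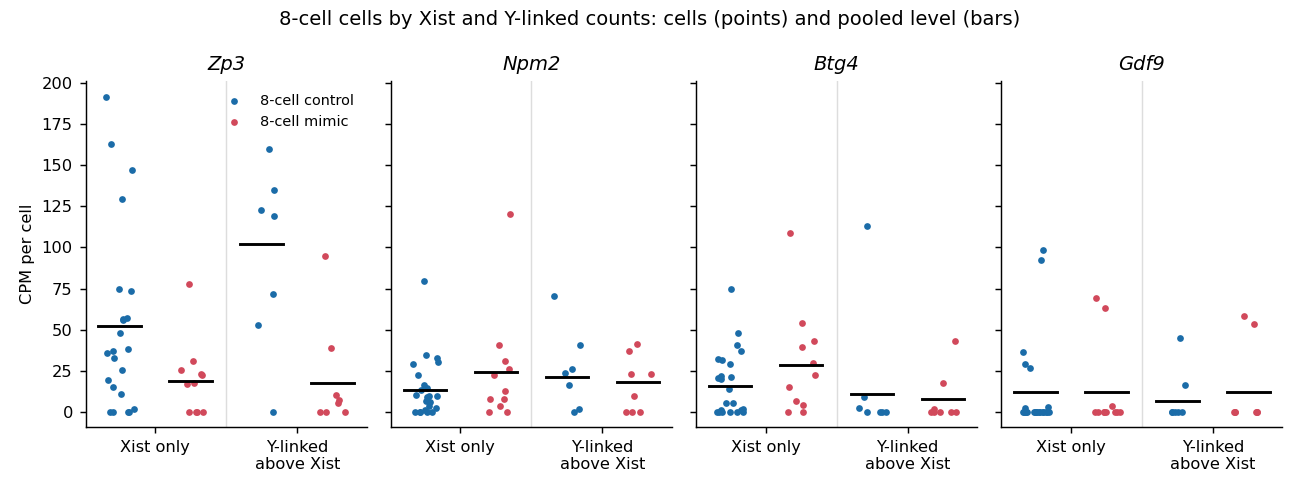
CPM per cell of Zp3, Npm2, Btg4 and Gdf9 in 8-cell control (blue) and 8-cell mimic (red) cells, split by Xist and Y-linked counts, without the 5 mimic cells of neither type, with black bars for the pooled level. Only Zp3 has a lower bar by a wide margin in mimic within both types (51.9 against 18.7 CPM, and 102.04 against 17.6 CPM); the bars of Npm2 and Btg4 change order between the types.

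Within the 8-cell stage the transcripts varied from cell to cell. Over the 54 8-cell cells, Pearson's r of log2(CPM + 1) between pairs of Zp3, Gdf9, Npm2 and Btg4 lay between -0.09 and 0.16. Within a treatment it went further and not the same way: for Zp3 and Gdf9 it was -0.05 in control and 0.48 in mimic, and for Zp3 and Npm2 0.29 in control and -0.25 in mimic. Zp3 and Npm2 were both counted in 29 cells, Zp3 alone of this pair in 11, Npm2 alone in 11 and neither in 3. The summed level of the 9 genes had r = 0.41 with the number of genes detected in the cell and -0.10 with the log2 of its total counts. These cells share embryos, runs and treatment, so r is a description.

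Likeness was taken over 8992 other genes at 5 CPM or more in the 8-cell cells pooled. The genes whose pattern over the 54 cells was most like Zp3 were Naa16 (r = 0.60), Mospd1 (0.51) and Gm15892 (0.50). For Npm2 they were Mdn1 (0.52), Rnh1 (0.50) and Gtf2ird1 (0.49). For Btg4 they were Plppr3 (0.54), Gdf11 (0.51) and Nus1 (0.50). None of these 9 is among the oocyte genes listed here.

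The treatment comparison at the 32-cell stage concerns what was left. A member of the set was counted in 2 of 39 control and 9 of 39 mimic cells, 13 gene and cell pairs in all. Most of these cells held 1 transcript. The exceptions were a control cell with 25 counts of Mos and 31 of Npm2 and a mimic cell with 51 counts of Zp3 and 2 of Zp2. None of the 9 genes reached 5 CPM, so none was compared by the limit.

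Genes restricted to tissues that the embryo lacks give a measure of background. Of all gene and cell pairs, the 9 oocyte genes had a count in 0.855% in 32-cell control and 2.85% in 32-cell mimic. The 8 genes of absent tissues, such as heart and lung, had one in 0.641% and 1.92%. At the 8-cell stage the oocyte genes had a count in 32.6% of pairs in control and 28.2% in mimic, against 1.25% and 0.521% for the absent tissues. The highest count of a single pair at the 32-cell stage was 31 in control and 51 in mimic for the oocyte genes, and 4 and 12 for the absent tissues. No expression is read from levels of this kind at the 32-cell stage, nor a difference between the treatments.

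The 2 control cells with a residual count were both among the 15 cells with the higher title numbers, and the 24 control cells numbered 63 to 86 had none. The 9 mimic cells came from all 3 runs of that group. By clusters made without the oocyte genes and named from fixed markers, the control cells were 1 of 25 ICM-like (inner cell mass) and 1 of 14 TE-like (trophectoderm) cells, and the mimic cells were 3 of 15 ICM-like and 6 of 24 TE-like cells.

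Markers of cumulus and granulosa cells, which surround the egg in the ovary, were counted as well. Of 12 cumulus and granulosa genes, 8 had no count in 8-cell control, 9 in 8-cell mimic and 8 in each 32-cell group. The median cell had a summed level of 0 CPM over the 11 genes other than Amhr2 in every group. Only Amhr2 and Star reached 5 CPM in control, and they differed in opposite directions: Amhr2 had 105.6 CPM at the 8-cell stage and 5.75 CPM at the 32-cell stage, and Star, of steroid synthesis, 2.34 and 17.3 CPM. In mimic only Amhr2 reached 5 CPM, again lower at the 32-cell stage, with a log2 difference of -2.24.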

How the data were processed

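Members and gene lists were chosen with earlier results of these data known. Per the labels and the study's methods, the authors mapped Smart-seq2 reads with STAR (version 2.5.1b) on mm10 and made expected counts per gene and cell with RSEM (version 1.3.0). The deposited values are not normalised and all were whole numbers. The study's filter (at least 3000 genes, under 10% mitochondrial counts) removed 0 cells.

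Counts of 13 mitochondrial genes were left out, and counts were summed over the cells of a group and divided by their total (Python 3.11.15, pandas 2.3.3, scipy 1.17.1). With no embryo label no p-value was computed. Intervals are 95%: exact Poisson for CPM, exact binomial (Clopper-Pearson) for shares, conditional binomial for ratios. A count of 0 was set at 3 counts of the pooled total. Differences use a pseudocount of 1. Since reads carry no molecular identifiers, intervals of levels and ratios cover counting error of reads only. Those of shares treat cells as independent, although cells share embryos. The call rule and the intervals were tested on simulated counts with counting error only. That does not show how they behave with the spread between cells seen here.

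Cells were clustered in Seurat (version 5.3.0, 2000 variable genes, 25 components, resolution 0.6) without the 9 genes, and the 2 clusters of 32-cell cells were named from 9 ICM and 9 TE markers. Cells with more Y-linked than Xist counts were 1 type, and of the rest those with Xist at 20 CPM or more and Y-linked genes below it the other. Within a group, title numbers more than 3 apart began a new run. Named genes were all 9 members; from each other list the 3 highest in 8-cell control and the extremes of each stage comparison, of which the text gives part; and the 3 genes most correlated with each of the 3 highest members. Zar1l, Xpo7, Figla and Nobox were named after their values were seen. UTRs, gene models and positions are from GENCODE M21, a release other than that used for counting.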

Additional observations from a re-analysis of the deposited data

How the results depend on the processing

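No paired analysis was possible because no result comes from a test and the labels give no embryo. Of 86 recomputed values of the summed levels, counts of calls and class counts, 66 stayed within the counting interval or within 1.5 times the count. With size factors from the median of ratios the summed stage difference (log2) in mimic was -4.17. With a pseudocount of 0.1 it was -6.27 in control and -4.26 in mimic, and the 32-cell treatment difference was 1.51. A filter of 20 CPM left 1 gene lower between the stages in each treatment. Between treatments at the 8-cell stage 3 genes were lower with a filter of 1 CPM or with none, and 0 with a log2 limit of 2; the genes added, Zp2 and Mos, each had most counts in 1 control cell (89.0% and 76.1%), so no direction is read from them. Cells of 1 Xist or Y-linked type gave -5.89 for the stage difference in control. In the 8-cell treatment comparison the summed difference was -0.31 with 3 genes lower (again with Zp2 and Mos) in cells with Xist only, and -1.09 in cells with Y-linked counts above Xist; Bmp15 turned to -0.055 in the former, where 1 control count faced none. Leaving out each run in turn, the summed stage difference ranged from -6.85 to -4.70 in control and from -4.24 to -3.90 in mimic, and the treatment difference from -0.53 to -0.10 at the 8-cell stage and from 0.20 (without the 32-cell control cells numbered 63 to 86) to 2.36 (without the other 15) at the 32-cell stage. Zp3 between treatments at the 8-cell stage was -0.11 when the 28 control cells numbered 1 to 30 were left out, which leaves 2 cells, and -1.42 to -2.47 under every other setting. Leaving out the 3 mimic cells with few genes, an alternative chosen after seeing the data, took Bmp15 to 0.79. The cause of these shifts was not tested. Depth limits the rare genes: 3 counts over a group are 0.0527 to 0.0971 CPM.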
